A study of Homo sapiens with 6 samples.

Results

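The genes described here are 39 genes of glycolysis and of the hypoxia response, taken by symbol from the 35716 genes of the deposited count table. They were listed by name for their place in these pathways, with no threshold on measured values, but with earlier results of these data known. All 39 had a row, and 38 passed the filter on low counts, which kept 15202 genes. LDHB, with 26 counts in each group, did not pass. The cells were MIA PaCa-2, an established human pancreatic carcinoma line labelled as wild type. In 3 libraries the cells were untreated, in DMEM with serum, and in 3 libraries they were kept with triptolide, a plant diterpenoid that binds the XPB subunit of TFIIH, at 10 nM for 24 h. The series' design text uses the word control for the triptolide cells, so groups were taken from each library's treatment label, and every direction rests on those labels. No vehicle is named for the untreated cells. Separate cultures are not stated either, and p-values therefore cover the spread among libraries only, which may be technical.

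Glycolysis splits glucose into pyruvate in a chain of enzyme steps, and most steps have several gene copies with different tissue patterns. In many carcinoma cells the pyruvate is turned into lactate and exported. The hypoxia-inducible factors are pairs of an oxygen-labile alpha subunit and ARNT. With oxygen present, prolyl hydroxylases mark the alpha subunit for destruction by VHL. In low oxygen it persists and switches on glucose transport, glycolysis, vessel growth and pH control, as is well known in pancreatic carcinoma. Much of this control acts on the protein, which mRNA counts do not show.

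Total counts ran from 16302961 to 23262713 per library. Values are CPM, the usual depth-scaled read count, on a library size scaled by TMM (a trimmed mean of ratios between libraries), so each rise or fall is relative to the other mRNAs of a library. A gene is said to rise or fall at an adjusted p under 0.05 in edgeR's quasi-likelihood test. In bulk RNA, fewer cells of a kind and less RNA per cell cannot be told apart. The labelled carcinoma line was checked against epithelial keratins. KRT8 averaged 1894 ± 341 CPM without and 1587 ± 256 CPM with the compound (adjusted p = 0.393), and KRT18 fell from 870 ± 168 to 503 ± 57.0 CPM (adjusted p = 0.0123). KRT19 lay on the lower side without passing, with 247 ± 65.2 and 164 ± 27.9 CPM (adjusted p = 0.0691). EPCAM had 4 counts untreated and 3 with triptolide, and CDH1 5 and 16. The 6 epithelial markers summed to 2570 to 3672 CPM untreated and 1970 to 2627 CPM with triptolide. Markers of placental trophoblast moved with the groups. Their summed level over 30 genes was 28.3 to 30.7 CPM in untreated and 600.5 to 975 CPM in triptolide libraries. Of the 22 tested, 20 rose, and 7 of the 30 had no count in any untreated library. Blood and erythroid markers summed to 2.83 to 3.93 CPM untreated and 11.7 to 23.7 CPM with triptolide, and of 4 tested 3 rose. Of 7 tested fibroblast markers 3 fell, and the summed level over all 10 was 408 to 484 CPM untreated and 307 to 420 CPM with triptolide. COL1A1 fell from 61.1 ± 12.1 to 2.83 ± 0.50 CPM (adjusted p = 4.74e-07). POSTN fell from 8.17 ± 3.99 to 0.0412 ± 0.040 CPM (adjusted p = 2.27e-05), and THY1 from 2.74 ± 0.26 to 0.999 ± 0.082 CPM (adjusted p = 0.00292). The other 4 were not called. COL1A2, the largest part of the sum, averaged 323 ± 30.8 and 329 ± 54.5 CPM (adjusted p = 0.936). Of 3 tested endothelial markers 1 rose and 1 fell. Placenta also expresses several of the genes below, and the part of these markers in the results was not tested.

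Of the 38 tested members, 7 rose and 1 fell with triptolide. That is 18.4% higher and 2.63% lower, beside 10.0% higher and 5.82% lower among all 15202 tested genes. The genes that rose were the glucose transporter SLC2A1, the aldolase ALDOC, the regulatory kinase PFKFB2, the HIF alpha subunit EPAS1, the prolyl hydroxylase EGLN3 and the HIF targets NDRG1 and ANKRD37. The lipid droplet gene HILPDA fell. The median log2 fold change was 0.22 over the tested members and -0.00404 over all tested genes. Of 23 tested glycolysis members 3 rose and 0 fell, and of 15 members of the HIF response 4 rose and 1 fell. No triptolide value crossed an untreated one in 17 of 38 members, or 44.7%, beside 36.7% of all tested genes. Triptolide was on the higher side in 13 of these and on the lower side in 4, beside 19.8% and 16.9% of all tested genes.

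**Figure D1:**
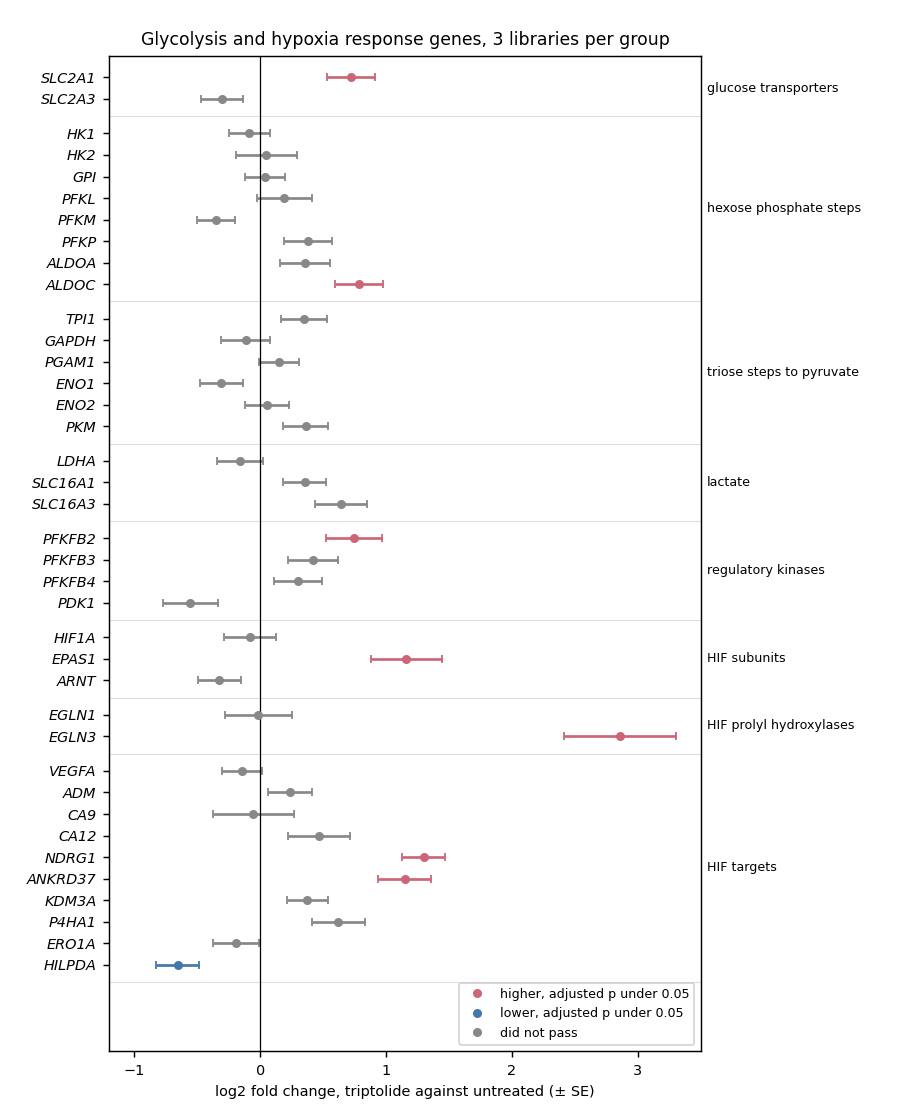
Log2 fold change of each tested member with triptolide against untreated cells, grouped by role, with bars of 1 SE from 3 libraries per group. EGLN3 lies farthest to the right at 2.86, and NDRG1, ANKRD37 and EPAS1 lie between 1.15 and 1.30. Apart from ALDOC at 0.79, the tested enzymes from hexokinase to lactate dehydrogenase lie between -0.35 and 0.38.

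For the members past the test, RefSeq start sites were looked up by symbol, since several of these genes rose together. The 250 bases before the start are shown for the 4 with the smallest adjusted p among those in the table, in GRCh38.p14. They lie at chr14:33951075-33951324 on the minus strand for EGLN3, chr4:185396591-185396840 on the plus strand for ANKRD37, chr2:46297157-46297406 on the plus strand for EPAS1 and chr17:28576896-28577145 on the minus strand for ALDOC. All lie upstream of the start site used, and overlap with transcripts from other starts of the same gene was not checked. Capitals mark ACGTG or GCGTG on either strand, the core letters that HIF dimers are known to bind, and CACGTG holds ACGTG on both strands.
EGLN3: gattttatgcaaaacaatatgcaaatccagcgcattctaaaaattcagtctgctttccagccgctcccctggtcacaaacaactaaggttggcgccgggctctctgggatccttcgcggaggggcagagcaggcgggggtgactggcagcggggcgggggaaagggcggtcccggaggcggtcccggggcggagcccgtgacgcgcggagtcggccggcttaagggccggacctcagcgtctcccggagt
ANKRD37: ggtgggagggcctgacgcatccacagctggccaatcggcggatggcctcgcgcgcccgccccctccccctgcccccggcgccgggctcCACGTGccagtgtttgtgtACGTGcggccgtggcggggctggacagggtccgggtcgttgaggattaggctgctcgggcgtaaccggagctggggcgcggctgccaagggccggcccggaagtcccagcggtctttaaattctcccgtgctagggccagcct
EPAS1: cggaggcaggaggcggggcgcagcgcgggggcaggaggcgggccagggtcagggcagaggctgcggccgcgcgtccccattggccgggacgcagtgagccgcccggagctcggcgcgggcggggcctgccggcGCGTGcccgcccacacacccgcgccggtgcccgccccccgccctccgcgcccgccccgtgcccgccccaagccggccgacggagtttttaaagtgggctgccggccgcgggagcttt
ALDOC: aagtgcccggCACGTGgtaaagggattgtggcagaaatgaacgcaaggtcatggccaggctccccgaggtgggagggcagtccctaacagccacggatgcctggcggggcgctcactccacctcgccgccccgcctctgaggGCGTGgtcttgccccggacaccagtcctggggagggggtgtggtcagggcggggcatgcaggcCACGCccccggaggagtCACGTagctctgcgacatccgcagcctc

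The ANKRD37 window held a CACGTG from 162 bases and an ACGTG from 143 bases before the start. The EPAS1 window held a GCGTG from 117 bases before the start. The ALDOC window held a CACGTG from 240, GCGTG from 108 and, on the other strand, from 45, and an ACGTG on the other strand from 28 bases before the start. Neither string was in the EGLN3 window, nor in that of SLC2A1. Over all 35116 start sites in the table, 18.5% of the same windows held ACGTG, 32.2% GCGTG and 43.2% either. Of the 61 start sites listed for 33 of the 39 members, 36 held either, or 59.0%, with ACGTG in 34.4% and GCGTG in 32.8%. These are matches of letters, not measured binding, and the windows compared were not matched for base composition. The members include genes listed as HIF targets, and a link of the letters to the change with triptolide was not tested. SLC16A1, SLC2A3, PFKFB2, VEGFA, NDRG1 and HILPDA had no entry.

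Among the glucose transporters, SLC2A1 rose and SLC2A3 did not pass. SLC2A1 (ENSG00000117394), which encodes GLUT1, the basal glucose carrier of most cells, stood at 169, 159 and 155 CPM in untreated replicates 1, 2 and 3. With triptolide it stood at 342, 212 and 242 CPM. All 3 triptolide libraries lay above all untreated ones, and triptolide replicate 1 was far above the other 2. The fold was 1.65 (log2 fold change 0.72 ± 0.19, SE), and edgeR gave an adjusted p of 0.0234. The adjusted p was 0.0567, 0.0940 and 0.0560 without untreated replicates 1, 2 and 3, and the log2 fold change was 0.51 without triptolide replicate 1 (adjusted p = 0.0310). Scaling on ribosomal protein genes gave an adjusted p of 0.0541. The trophoblast layer of placenta is also known for abundant GLUT1, and the trophoblast sum was highest in the same triptolide library. CSH1 alone had 632 CPM of that sum. Of the 22 tested trophoblast markers, 10 were highest in triptolide replicate 1, 8 in replicate 2 and 4 in replicate 3. The part of these markers in the SLC2A1 result was not tested. SLC2A3 (ENSG00000059804), the high-affinity carrier GLUT3, stood at 22.5, 23.9 and 21.5 CPM untreated and at 16.6, 20.04 and 18.3 CPM with triptolide. Its groups did not overlap either, on the lower side, with a log2 fold change of -0.30 ± 0.16 (adjusted p = 0.235). The share of SLC2A3 in the counts of both genes went from 12.3% ± 0.67 to 6.77% ± 2.01 (SD, n = 3), with no overlap. The exact two-sided permutation p was 0.1, the smallest that 3 against 3 libraries allow, and 0.35 adjusted over the 7 isoform shares compared.

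In the hexose phosphate steps only ALDOC of 8 genes rose and 0 fell. ALDOC (ENSG00000109107), an aldolase known best from brain, stood at 9.31, 10.2 and 10.2 CPM untreated and at 20.8, 14.3 and 16.3 CPM with triptolide. The groups were apart, and triptolide replicate 1 was again the highest. The fold change was 1.72, a log2 fold change of 0.79 ± 0.19, with an adjusted p of 0.0165. It was 0.0702 without untreated replicate 1 and 0.0646 without untreated replicate 2. ALDOA, the main aldolase of most cells, averaged 36.1 ± 6.84 CPM without and 46.3 ± 8.48 CPM with triptolide (adjusted p = 0.241). In GENCODE 29, 42.3% of its exon length is shared with AC093512.2 on the same strand, and how reads in shared exons were counted is not given in the sources used here. Its level is therefore uncertain, and so is the share of ALDOC in both aldolases, which was 21.9% ± 3.93 untreated and 27.0% ± 1.61 with triptolide (exact permutation p = 0.2).

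The first and the committed step showed no called change. HK1, the housekeeping hexokinase, averaged 291 ± 14.6 CPM without and 274 ± 42.7 CPM with triptolide. HK2, the inducible hexokinase bound to mitochondria, stood at 179 ± 47.6 and 186 ± 52.2 CPM. The spread of HK2 within each group, from 126 to 217 CPM untreated and from 126 to 223 CPM with triptolide, was far larger than the difference of the means. Per kilobase of exon (GENCODE 29), HK1 was at 46.2 ± 2.32 and HK2 at 29.6 ± 7.84 CPM untreated. HKDC1, a hexokinase gene outside the members, was at 49.4 ± 5.02 CPM per kilobase untreated. It averaged 211 ± 21.4 CPM untreated and 288 ± 59.8 CPM with triptolide. Its groups did not overlap, on the higher side, and it did not pass (log2 fold change 0.45 ± 0.18, adjusted p = 0.116). GPI, the isomerase after hexokinase, had 794, 756 and 783 CPM untreated and 900.1, 768 and 724 CPM with triptolide, overlapping (log2 fold change 0.04 ± 0.16, adjusted p = 0.901). The 3 phosphofructokinase genes encode the subunits of the committed enzyme. PFKM, the muscle-type subunit, stood at 112, 116 and 117 CPM untreated and at 97.1, 79.9 and 93.5 CPM with triptolide, with no overlap. Its log2 fold change was -0.35 ± 0.15, with an unadjusted p of 0.0410 and an adjusted p of 0.143. PFKP, the platelet-type subunit, stood at 382, 356 and 336 CPM untreated and at 598, 375 and 426 CPM with triptolide (log2 fold change 0.38 ± 0.19, adjusted p = 0.194). PFKL, the liver-type subunit, stood at 406 ± 21.5 and 464 ± 165 CPM, with 650 CPM in triptolide replicate 1 and 336 CPM in replicate 2. PFKP made up 40.7% ± 2.48 of the counts of the 3 subunit genes untreated and 45.9% ± 1.48 with triptolide, with no overlap (exact permutation p = 0.1, and 0.35 adjusted over the 7 shares).

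None of the 6 member genes from triose phosphate to pyruvate passed, and these hold most of the members' mRNA. At an unadjusted p under 0.05 in edgeR there were 0, and DESeq2 and limma-voom also called 0. GAPDH, the dehydrogenase of the chain, had 6058, 7083 and 7476 CPM untreated and 7894, 5522 and 5605 CPM with triptolide. Triptolide replicate 1 had the highest value of all 6 libraries, and the other 2 triptolide libraries the lowest (log2 fold change -0.12 ± 0.19, adjusted p = 0.725). ENO1, the main enolase, had 3882, 4205 and 5079 CPM untreated and 3878, 3445 and 3302 CPM with triptolide. Its groups came apart by a few CPM, on the lower side (log2 fold change -0.31 ± 0.17, adjusted p = 0.249). PKM, the pyruvate kinase gene, had 3575, 3534 and 3975 CPM untreated and 5730, 4376 and 4136 CPM with triptolide, apart on the higher side (log2 fold change 0.36 ± 0.18, adjusted p = 0.193). TPI1, which interconverts the triose phosphates, had 1954, 2132 and 2617 CPM untreated and 3212, 2896 and 2436 CPM with triptolide, with an overlap (log2 fold change 0.35 ± 0.18, adjusted p = 0.213). PGAM1, the mutase, had 617 ± 50.01 and 685 ± 75.2 CPM, and ENO2, the enolase known from neurons, 127 ± 5.74 and 132 ± 25.8 CPM. ENO2 made up 2.85% ± 0.42 of the counts of both enolases untreated and 3.58% ± 0.47 with triptolide (exact permutation p = 0.2). Processed copies of these genes can share reads. Those named in the table held 1.40% as many counts as TPI1 and 0.382% as many as GAPDH. The member enzymes from hexokinase to pyruvate kinase were summed with LDHA and LDHB, 16 genes in all. They took 2.10% ± 0.089 of all counts untreated and 2.23% ± 0.23 with triptolide. PGK1, the kinase between GAPDH and PGAM1, and the hexokinase gene HKDC1 are not members and are not in this sum.

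On the lactate side, LDHA carried nearly all lactate dehydrogenase counts and 0 of 3 tested genes passed. LDHA, the muscle-type subunit and a HIF target, had 1391, 1392 and 1607 CPM untreated and 1070, 1602 and 1263 CPM with triptolide. The groups overlapped, with a log2 fold change of -0.16 ± 0.18 (adjusted p = 0.599). LDHB, the heart-type subunit, had 7, 7 and 12 counts untreated and 6, 10 and 10 counts with triptolide. LDHA thus made up between 99.96% and 99.97% of the counts of both genes in each library. In GENCODE 29, 33.4% of the LDHB exon length is shared with AC010197.2 on the same strand, so its low count is uncertain. SLC16A3 (ENSG00000141526), the lactate exporter MCT4, fell just outside the threshold. It had 247, 241 and 281 CPM untreated and 534, 301 and 368 CPM with triptolide, a log2 fold change of 0.65 ± 0.21 with an adjusted p of 0.0526. The groups were apart, with triptolide replicate 1 the highest, and without that library the log2 fold change was 0.40 (adjusted p = 0.0876). It passed with DESeq2 (adjusted p = 0.0255) and with library totals alone (0.0315). CSNK1D overlaps 5.40% of its exons on the opposite strand and had 192 ± 6.96 and 187 ± 29.5 CPM. SLC16A1, the widely expressed lactate carrier MCT1, had 228, 225 and 170 CPM untreated and 250, 256 and 288 CPM with triptolide (adjusted p = 0.178). The MCT4 gene made up 55.4% ± 6.07 of the counts of both carriers untreated and 59.4% ± 7.66 with triptolide (exact permutation p = 0.5), and without triptolide replicate 1 the difference was -0.345 percentage points.

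**Figure D2:**
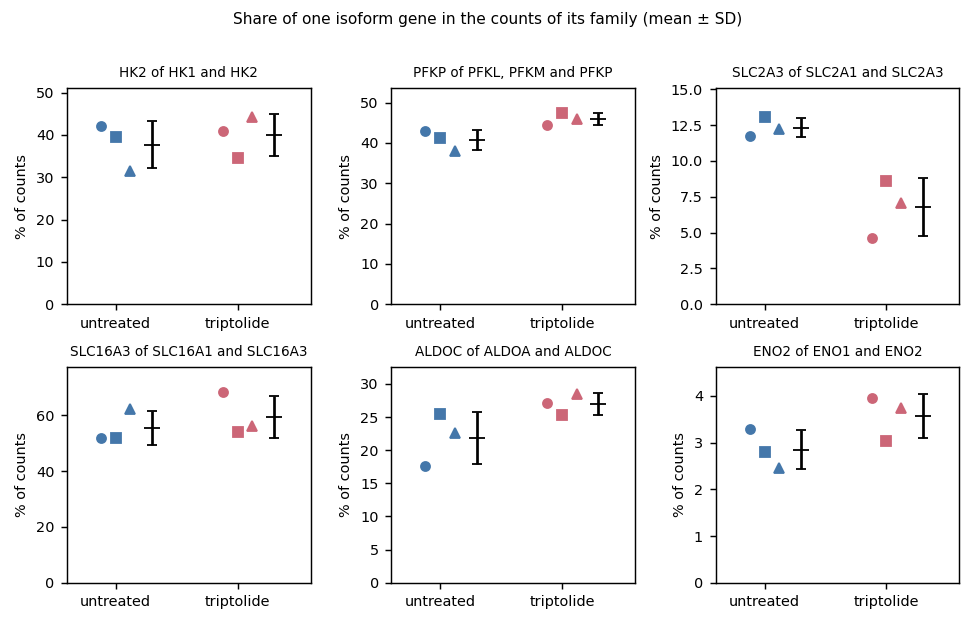
Share of 1 isoform gene in the counts of its family in each library, in percent, with the mean and SD of 3 libraries per group beside the points. The SLC2A3 share lies at 11.7% to 13.1% untreated and 4.64% to 8.63% with triptolide, while the HK2, SLC16A3, ALDOC and ENO2 shares overlap between the groups.

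Of the 4 regulatory kinases, PFKFB2 rose. PFKFB enzymes set the level of fructose 2,6-bisphosphate, the activator of phosphofructokinase. PFKFB2 (ENSG00000123836), the heart-type form, had 8.86, 7.09 and 5.18 CPM untreated and 11.7, 10.2 and 13.5 CPM with triptolide. The groups were apart, with a log2 fold change of 0.75 ± 0.22 and an adjusted p of 0.0419, just inside the threshold. Leaving out untreated replicate 2 or 3 ended the call (adjusted p = 0.121 and 0.119), as did leaving out triptolide replicate 1 or 3 (0.0646 and 0.148). With scaling on ribosomal protein genes the adjusted p was 0.161. PFKFB3, the inducible form with high kinase activity, had 90.1 ± 14.7 and 121 ± 26.1 CPM (adjusted p = 0.169), and PFKFB4 28.6 ± 3.63 and 35.2 ± 7.09 CPM (adjusted p = 0.318). PDK1, which shuts off pyruvate dehydrogenase and is a HIF target, had 15.6, 15.2 and 10.7 CPM untreated and 7.24, 10.1 and 10.8 CPM with triptolide. These overlapped at the edge (log2 fold change -0.56 ± 0.22, unadjusted p = 0.0255, adjusted p = 0.106).

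Of the HIF subunits, EPAS1 rose from a low level and HIF1A did not pass. EPAS1 (ENSG00000116016), which encodes HIF-2 alpha, had 2.13, 2.44 and 1.10 CPM untreated and 3.97, 4.20 and 4.51 CPM with triptolide. The groups were apart, with a fold change of 2.24, a log2 fold change of 1.16 ± 0.28 and an adjusted p of 0.0157 (0.0589 with scaling on ribosomal protein genes). HIF-2 alpha is also known from endothelium and placenta. Of the 6 endothelial markers, VWF rose from 4 to 52 counts (adjusted p = 0.0109), CDH5 fell from 23.6 ± 2.54 to 15.9 ± 2.15 CPM (adjusted p = 0.0471), and EMCN did not pass, with 5.14 ± 0.42 and 3.498 ± 1.33 CPM. PECAM1 (5 and 58 counts), KDR (10 and 19) and TEK (4 and 3) were too low to be tested. The part of these markers in the EPAS1 result was not tested. HIF1A (ENSG00000100644), whose protein is the HIF-1 alpha subunit, had 228, 244 and 168 CPM untreated and 151, 235 and 218 CPM with triptolide. Both groups held a low and 2 high libraries, and the log2 fold change was -0.08 ± 0.20 (adjusted p = 0.821). ARNT, the shared partner, had 52.5 ± 8.42 and 41.8 ± 2.63 CPM (adjusted p = 0.222). Per kilobase of exon, HIF1A was at 41.4 ± 7.79 CPM, ARNT at 8.05 ± 1.29 CPM and EPAS1 at 0.259 ± 0.096 CPM untreated. With triptolide the same order held, at 39.1 ± 8.64, 6.42 ± 0.40 and 0.579 ± 0.037 CPM per kilobase, with no overlap of the spreads between neighbours.

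EGLN3 rose most of all members, and EGLN1 did not pass. EGLN3 (ENSG00000129521), a prolyl hydroxylase that is itself a HIF target, had 2, 5 and 3 counts untreated and 21, 42 and 25 counts with triptolide, or 0.112, 0.277 and 0.165 CPM against 1.32, 1.84 and 0.998 CPM. All triptolide libraries were several times above all untreated ones, and triptolide replicate 2 was the highest. The fold change was 7.27, a log2 fold change of 2.86 ± 0.45, with an adjusted p of 0.00144. The counts are low, so the size of this rise is less precise than those of abundant genes. EGLN1, the main oxygen sensor of the HIF system, had 37.5, 37.1 and 23.1 CPM untreated and 43.3, 20.6 and 32.8 CPM with triptolide (log2 fold change -0.02 ± 0.27, adjusted p = 0.976).

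**Figure D3:**
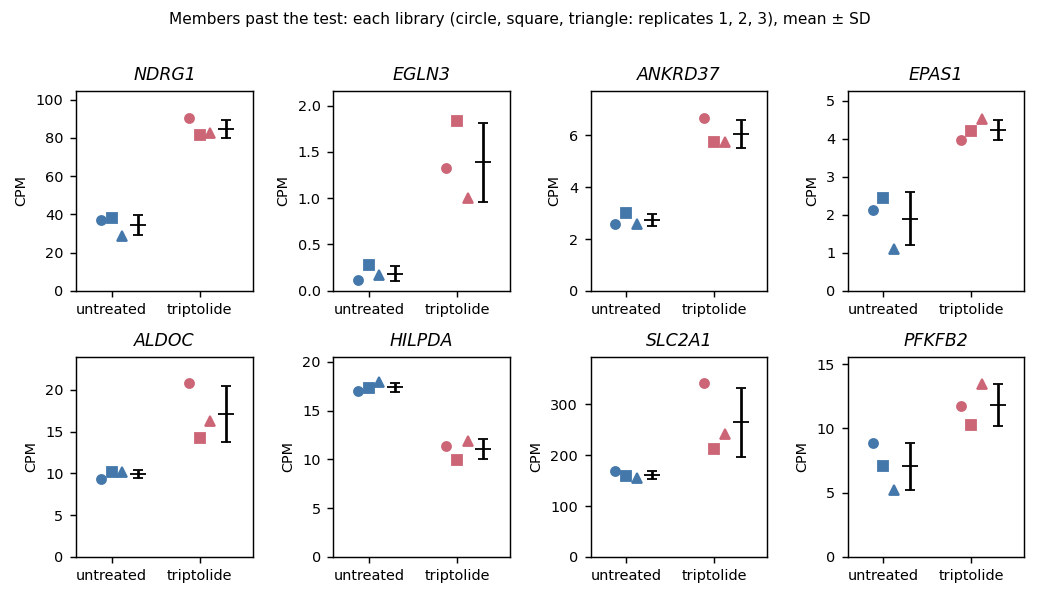
CPM of the 8 members past the test in each library, with the mean and SD of 3 libraries per group drawn beside the points and axes that start at 0. NDRG1 lies between 28.5 and 37.8 CPM untreated and between 81.6 and 90.2 CPM with triptolide, and HILPDA falls from 17.0 to 17.9 CPM down to 9.89 to 11.9 CPM.

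Of 10 HIF targets, 2 rose and 1 fell. NDRG1 (ENSG00000104419), a stress and differentiation gene induced by hypoxia, had 37.0, 37.8 and 28.5 CPM untreated and 90.2, 81.6 and 82.5 CPM with triptolide. The fold change was 2.46, a log2 fold change of 1.30 ± 0.17, with an adjusted p of 0.000479. The 3 triptolide libraries lay close together and far above the untreated ones. ANKRD37 (ENSG00000186352), an ankyrin repeat gene known as a HIF-1 target, had 2.58, 2.99 and 2.59 CPM untreated and 6.68, 5.73 and 5.75 CPM with triptolide. The fold change was 2.22, a log2 fold change of 1.15 ± 0.21, with an adjusted p of 0.00353. UFSP2 overlaps 35.2% of its exons on the opposite strand, and reads of both cannot be told apart without the strand setting. UFSP2 itself lay on the lower side, with 13.3 ± 2.19 and 8.94 ± 1.51 CPM (adjusted p = 0.0776). NDRG1, ANKRD37 and EGLN3 passed in each alternative in which they were tested, 15 for NDRG1 and 14 for the other 2. The log2 fold change ran from 1.17 to 1.44 for NDRG1, from 1.09 to 1.32 for ANKRD37 and from 2.59 to 3.25 for EGLN3. None of these alternatives could separate the rise of the trophoblast markers from the treatment groups. The part of those markers in the NDRG1, ANKRD37 and EGLN3 results was not tested.

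HILPDA (ENSG00000135245), a lipid droplet protein gene that blocks lipolysis in hypoxia, was the member that fell. It had 17.0, 17.3 and 17.9 CPM untreated and 11.3, 9.89 and 11.9 CPM with triptolide, with each group tight. The log2 fold change was -0.66 ± 0.17, with an adjusted p of 0.0219. The adjusted p was 0.0649 and 0.0875 without untreated replicates 1 and 2, 0.0732 and 0.0595 without triptolide replicates 2 and 3, and 0.377 with scaling on ribosomal protein genes.

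The other 7 HIF targets did not pass. P4HA1, which hydroxylates collagen, had 44.7, 46.2 and 47.5 CPM untreated and 47.9, 88.8 and 76.2 CPM with triptolide (log2 fold change 0.62 ± 0.21, adjusted p = 0.0658). Triptolide replicate 1 stood just above the untreated libraries, and without it the log2 fold change was 0.85 (adjusted p = 0.00434). P4HA1 passed in 4 of 15 alternatives, among them DESeq2 (adjusted p = 0.0403) and no low-count filter (0.0207). KDM3A, a histone H3 lysine 9 demethylase, had 68.3, 59.6 and 53.7 CPM untreated and 72.8, 77.8 and 84.5 CPM with triptolide (log2 fold change 0.37 ± 0.16, unadjusted p = 0.0398, adjusted p = 0.141). VEGFA, the main growth factor for vessels, had 106, 103 and 90.3 CPM untreated and 95.1, 79.5 and 96.5 CPM with triptolide (log2 fold change -0.15 ± 0.16, adjusted p = 0.575). ADM, the vasodilator adrenomedullin, had 14.7 ± 1.94 and 17.3 ± 1.29 CPM. The oxidase gene ERO1A, which makes disulfide bonds in the endoplasmic reticulum, had 77.3 ± 4.16 and 67.6 ± 14.0 CPM, with 51.5 CPM in triptolide replicate 1. The carbonic anhydrase genes, which buffer pH at the cell surface, were both low. CA9 had 1.28 ± 0.42 and 1.25 ± 0.28 CPM, and CA12 2.09 ± 0.34 and 2.89 ± 0.42 CPM. In CA9, 38.5% of the exon length overlaps ARHGEF39 on the opposite strand, which had 10.9 ± 0.73 and 12.7 ± 0.81 CPM, so that its few counts are uncertain.

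Libraries of both groups differed along GC content, and this touched the members. Over all tested genes, the deviation of a library's log2 CPM from the mean of all 6 had a Spearman rho with GC of -0.282, -0.408 and 0.0479 in untreated and 0.654, -0.244 and -0.145 in triptolide replicates 1, 2 and 3. Untreated replicate 3 stood apart from the other 2 untreated libraries, and held the highest value of the 6 in 23.3% and the lowest in 21.6% of tested genes. Triptolide replicate 1 held the highest of the 6 values in 20 of 38 members, and in 16 of 23 glycolysis members, beside 26.5% of all tested genes. Across the 38 members, the log2 ratio of that library to the other 2 triptolide libraries had a Spearman rho of 0.752 with the GC content of the gene's transcripts. The rho was -0.490 for triptolide replicate 2 and -0.712 for replicate 3, and these 3 values share the same libraries. GC-rich PFKL and SLC16A3 (64.0% and 65.6%) stood high in replicate 1, and GC-poor HIF1A and P4HA1 (38.9% and 40.2%) stood low. With a GC trend fitted per library as an offset, chosen after seeing the data, 11 members rose and 2 fell. Calls over all 15077 genes tested in that fit went up as well, to 16.6% higher and 9.21% lower. The 8 calls all held, with adjusted p-values from 0.000491 for NDRG1 to 0.0146 for EPAS1. P4HA1 (adjusted p = 0.00206), SLC16A3 (0.00572), KDM3A (0.00963) and SLC16A1 (0.0215) passed on the higher side and PFKM (0.0416) on the lower side. HIF1A had a log2 fold change of 0.16 (adjusted p = 0.328) under that offset, in place of -0.08.

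**Figure D4:**
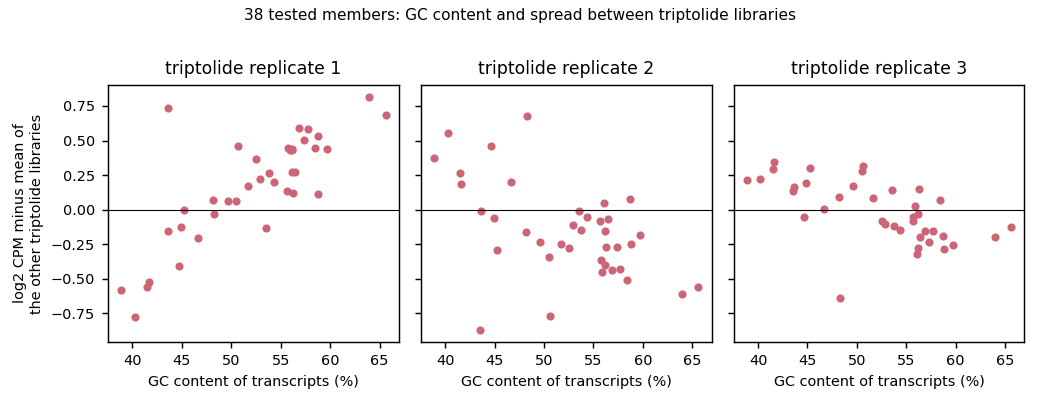
Each point is a tested member, with the GC content of its GENCODE 29 transcripts in percent on the x axis and its log2 CPM in a triptolide library, minus the mean of the other 2 triptolide libraries, on the y axis. The points slope upward in replicate 1 (rho 0.752) and downward in replicates 2 and 3.

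A list of 54 further genes of glycolysis, pyruvate entry and glucose sensing gave 35 tested genes, of which 2 rose and 3 fell (5.71% and 8.57%). Among all tested genes, 10.0% rose and 5.82% fell. The subunits of pyruvate dehydrogenase, which feeds pyruvate to the citrate cycle, moved both ways. DLD, the dihydrolipoyl dehydrogenase, fell 1.69-fold from 97.2 ± 6.56 to 57.4 ± 12.4 CPM (adjusted p = 0.0160). PDHB, an E1 subunit, fell to 24.0 ± 3.24 CPM from 36.0 ± 4.02 CPM (adjusted p = 0.0419), while PDHX, the E3-binding protein, rose 1.44-fold to 112 ± 15.3 CPM (adjusted p = 0.0432). TXNIP, which restrains glucose uptake and is induced by glucose, fell 1.46-fold from 103 ± 1.66 to 71.0 ± 6.02 CPM (adjusted p = 0.0309). MLXIPL, a glucose-sensing transcription factor, rose 1.58-fold to 11.9 ± 2.23 CPM (adjusted p = 0.0499). Each of these 5 calls was lost without untreated replicate 2 (adjusted p from 0.0651 to 0.217) and without triptolide replicate 3 (0.0509 to 0.121). PDHB, PDHX, TXNIP and MLXIPL were lost without untreated replicate 1 (0.0612 to 0.146), PDHB and PDHX without untreated replicate 3 (0.0957 and 0.0870), PDHB and MLXIPL without triptolide replicate 1 (0.0585 and 0.0749), and PDHX and TXNIP without triptolide replicate 2 (0.126 and 0.0501). With scaling on ribosomal protein genes, none of the 5 passed, with adjusted p-values from 0.0713 for MLXIPL to 0.472 for TXNIP. PGK1, the glycolytic kinase between GAPDH and PGAM1, had 1021 ± 86.0 and 977 ± 34.7 CPM (adjusted p = 0.819).

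A list of 65 further HIF pathway and hypoxia target genes gave 60 tested genes, of which 8 rose and 5 fell (13.3% and 8.33%). Beside these stand 10.0% higher and 5.82% lower among all tested genes. PGF, the placental growth factor, rose from 2.97, 1.83 and 3.03 CPM to 15.3, 16.3 and 12.8 CPM, a 5.66-fold rise (adjusted p = 6.37e-05). FLT1, the receptor it binds, rose 3.98-fold to 3.32 ± 1.93 CPM (adjusted p = 0.00887), with 5.51 CPM in triptolide replicate 2. Both genes are abundant in placenta, and the trophoblast markers rose in the same libraries. The part of these markers in the PGF and FLT1 results was not tested. STC1, a secreted glycoprotein gene, rose 2.15-fold to 42.9 ± 3.02 CPM, and CA14, a membrane carbonic anhydrase, 3.49-fold to 3.37 ± 0.042 CPM. On the lower side, STC2, the paralog of STC1, fell 5.98-fold from 3.81 ± 0.98 to 0.641 ± 0.22 CPM (adjusted p = 0.000415). ERRFI1, a feedback inhibitor of EGFR, fell 2.14-fold from 720 ± 98.5 to 337 ± 43.9 CPM. DDIT4, which restrains mTORC1 under hypoxia and stress, fell 1.80-fold from 213 ± 12.7 to 118 ± 29.5 CPM. CITED2, which competes with HIF alpha subunits for the coactivator CBP and p300, fell 1.65-fold from 81.2 ± 1.83 to 49.2 ± 5.17 CPM (adjusted p = 0.00894, and 0.0516 without untreated replicate 2 and 0.0593 without triptolide replicate 3). With scaling on ribosomal protein genes, CITED2 (0.216) and DDIT4 (0.138) did not pass. VHL, the ubiquitin ligase subunit that removes hydroxylated HIF alpha, had 27.1 ± 2.43 and 19.3 ± 2.92 CPM (adjusted p = 0.0806), and HIF1AN, the asparagine hydroxylase of HIF alpha, 92.2 ± 8.997 and 85.7 ± 5.28 CPM. PGK1, HKDC1, PDHA1, DLAT, VHL, HIF1AN and LOX were named after their values were seen.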

How the data were processed

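Poly(A)-selected RNA sequencing of 6 MIA PaCa-2 libraries was analysed, 3 untreated and 3 with triptolide. The authors deposited whole-number counts per Ensembl gene, aligned with HISAT2 and counted with featureCounts per the submitters' processing notes. For versions, genome build, annotation, strand and multi-mapping, the sources used here give nothing. Symbols were matched by gene ID for 35639 of 35716 genes. Exon lengths, GC content and overlaps came from GENCODE 29, and start sites from RefSeq (GRCh38.p14).

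After filterByExpr and TMM scaling, edgeR 4.0.16 in R 4.3.3 gave quasi-likelihood tests of group, adjusted by Benjamini-Hochberg over the 15202 genes kept. SEs were taken from the log2 fold change and its F statistic. Values are mean ± SD over 3 libraries. Total counts per library (16302961 to 23262713) set the precision of low genes. For isoform shares the test was an exact permutation over libraries, two-sided. The fit was tested on simulated data. Alternatives used DESeq2 1.42.0, limma-voom (limma 3.58.1), other scalings and filters, a replicate block and each library left out.

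The members and lists were chosen with earlier results of these data known. Full values were given for members with an adjusted p under 0.05, then an unadjusted p under 0.05, then the 6 most abundant others. Values per library for SLC2A3, PFKP, SLC16A1, HIF1A, EGLN1, VEGFA and LDHB, outside that rule, were chosen after seeing them. From each further list up to 4 called genes per direction were named by adjusted p. Promoters were shown for 4 members with an entry, by adjusted p.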

Additional observations from a re-analysis of the deposited data

How the results depend on the processing

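The count of 7 members higher was 4 with scaling on ribosomal protein genes, 3 under a floor of 5 CPM on a gene's mean, where EGLN3, ANKRD37, EPAS1, CA9 and CA12 are not tested by construction, and 11 with the GC offset, under which calls over all genes also went from 1527 to 2497 higher and from 884 to 1389 lower. The 1 lower was 0 with ribosomal protein scaling, with the 5 CPM floor and with the replicate block, and 2 with the GC offset. Leaving out each library gave 4 to 8 higher and 0 to 1 lower. Ribosomal protein scaling moved the median of all genes from -0.00404 to 0.169 and the share of calls that were higher from 63.3% to 90.2%, and library totals alone gave 73.8%. With ribosomal protein scaling SLC2A1 (adjusted p = 0.0541), EPAS1 (0.0589), PFKFB2 (0.161) and HILPDA (0.377) did not pass. PFKFB2 also missed with library totals (0.0512) and the 5 CPM floor (0.0506), and HILPDA with the latter (0.0559). Of the further glycolysis genes, 2 higher became 1 with RLE size factors and limma-voom, 0 with ribosomal protein scaling and the replicate block, 7 with the GC offset and 0 to 4 without each library. The 3 lower became 1 with library totals, the 5 CPM floor and the replicate block, 0 with ribosomal protein scaling and 0 to 3 without each library. Of the further HIF genes, 8 higher became 5 with ribosomal protein scaling, 16 with the GC offset and 5 to 8 without each library. The 5 lower became 2 with ribosomal protein scaling, 3 with the 5 CPM floor and 3 to 7 without each library. STC2 and LOX, which fell, are not tested under that floor by construction. Without each library in turn, the difference in share ran from -0.00337 to 0.00326 percentage points for LDHA, from -0.807 to 4.97 for HK2 and from -0.345 to 7.54 for SLC16A3. The median of the members stayed between 0.13 and 0.38 in all alternatives. The causes were not tested. Same-numbered libraries did not deviate together (correlations of 0.0286, -0.0411 and -0.439), so the numbers were not taken as pairs. With the replicate block 7 members were higher and 0 lower, HILPDA having an adjusted p of 0.0514. Depth limits LDHB, EGLN3 and CA9 most.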
